A study of Mus musculus with 4 samples.

Results

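The 7 genes described here, Hmgcs1, Fdft1, Sqle, Lss, Cyp51, Dhcr7 and Srebf2, encode 6 enzymes of cholesterol synthesis and the transcription factor that regulates them. They were chosen by name, as all probe sets that the annotation of the Affymetrix Mouse Gene 1.1 ST array pairs with these symbols, and make up 7 of the 18820 genes with a value of their own. Each of the 7 had 1 probe set of its own. None of the 7 is an uptake gene, although uptake belongs to the same theme, and uptake genes are therefore given from a separate list. Total RNA from whole testes of adult male mice was studied in 4 arrays, 2 of each genotype, and each array held RNA from a pool of 3 testes, so that single animals cannot be separated. In KO mice (Azin2 βGeo/βGeo, on a C57BL/6 mixed background) both alleles of Azin2 hold a β-Geo cassette, so that a truncated AZIN2 fused to β-galactosidase is still made under the Azin2 promoter. WT mice (Azin2 +/+) lack the cassette, and no treatment of either group is given in the labels. AZIN2 is an antizyme inhibitor, a protein that relieves ornithine decarboxylase and polyamine uptake from antizymes, and the comparison asks how its loss affects gene expression in the testis.

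Cholesterol is built from acetyl-CoA through mevalonate to squalene, which is then oxidized, closed into the sterol lanosterol and converted to cholesterol. When sterols in the endoplasmic reticulum are low, SCAP escorts SREBP2, the product of Srebf2, to the Golgi, where site proteases release its active part, which switches on nearly all genes of the route. INSIG proteins hold SCAP back when sterols are high. In the testis, Leydig cells use cholesterol as the precursor of testosterone, Sertoli cells supply and recycle lipids, and germ cells make sterol intermediates of their own, among them the meiosis-activating sterol that CYP51 produces. A whole testis holds all these cells, and in such samples fewer cells of a type cannot be told apart from less RNA per cell.

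Promoter sequences are shown because these genes share a regulator. Lss, Cyp51 and Dhcr7 were picked with their values known, as they differed together between the WT arrays, as described further on. Hmgcs1, which differed less, is shown beside them. Srebf2, which differed by 0.21 between the WT arrays, also has a window and is not printed. Whether promoter sequence has a part in these differences was not tested. RefSeq (GRCm38.p6) gave windows of 250 bases before to 50 bases after a start site for 5 of the 7 genes, 7 windows in all, 3 of them for Dhcr7. The 150 bases before the start site, in the direction of the gene, are printed for the 4 genes, with the NF-Y box (CCAAT, or ATTGG on the other strand) and the sterol regulatory element (TCACNCCAC) in capitals. For Dhcr7, the window that holds the NF-Y boxes is given. The other windows of Dhcr7, among them the one at the annotated start of the gene, held no NF-Y box.
Hmgcs1, chr13:119690201-119690350, plus strand: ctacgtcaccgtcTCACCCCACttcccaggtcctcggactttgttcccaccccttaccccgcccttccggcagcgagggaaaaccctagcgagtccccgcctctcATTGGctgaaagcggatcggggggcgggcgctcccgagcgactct
Lss, chr10:76531455-76531604, plus strand: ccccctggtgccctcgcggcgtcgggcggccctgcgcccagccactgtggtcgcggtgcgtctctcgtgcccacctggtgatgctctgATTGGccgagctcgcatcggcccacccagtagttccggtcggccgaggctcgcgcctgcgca
Cyp51, chr5:4104698-4104847, minus strand: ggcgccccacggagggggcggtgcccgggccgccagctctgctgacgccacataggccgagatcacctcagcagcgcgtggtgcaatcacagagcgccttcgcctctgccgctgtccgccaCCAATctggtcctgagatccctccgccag
Dhcr7, chr7:143830064-143830213, plus strand: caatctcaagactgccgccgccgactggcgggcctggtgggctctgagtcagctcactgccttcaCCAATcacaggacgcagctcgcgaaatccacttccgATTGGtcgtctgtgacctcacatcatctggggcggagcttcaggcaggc

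The letters TCACNCCAC of the sterol regulatory element stood in 1 of the 7 windows, against 1.24% of the 32851 windows of the table. That window was the one of Hmgcs1, with the match at position -137 from its start site. At least 1 NF-Y box stood in 5 of the 7, a window of each of the 5 genes, against 37.4% of all windows, and a GC box (GGGCGG) in 6 of the 7, against 35.7%. The half-site of the cAMP response element (TGACG), through which the germ cell activator CREM acts, stood in 3 of the 7, those of Hmgcs1, Cyp51 and Srebf2, against 20.8% of all windows. Both strands were searched, overlaps were counted, and a match of letters is a description and not a site in use. Only these exact letters were searched, so a variant of an element would be missed. A window without a match is therefore not shown to lack the element.

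The arrays had medians between 6.08 and 6.11 on the log2 scale of RMA signals. Azin2 was at 7.36 and 7.14 in the KO arrays and at 10.16 and 9.998 in the WT arrays (log2 difference -2.83, standard error 0.10, adjusted p = 0.0250 from limma). Leaving out WT replicate 1 gave an adjusted p of 0.294 at a difference of -2.75, and leaving out WT replicate 2 gave 0.232 at -2.91. With the ordinary equal-variance test it was 0.868, and it was 0.0707 over every row of the table. The labels thus fit the signal of the targeted gene. As for the tissue, the 6 spermatid marker genes with a value, among them the protamine gene Prm1 and the transition protein gene Tnp1, had means of 11.76 to 11.77 in the 4 arrays, and the 4 measured Leydig cell markers, among them Cyp17a1, had means of 10.45 to 10.75. None of the 7 genes lies on chromosome 4, where Azin2 is. Of the other pathway genes described further on, Abca1, Scp2 and Lrp8 lie there, and the part of that location in their values was not tested. All 7 were above the median of all probe sets in each of the 4 arrays.

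In what follows, the value of replicate 1 is given first in each genotype. At the start of the route, the signals of Hmgcs1 and Fdft1 were nearly equal in KO and WT testes. Hmgcs1, which encodes the cytosolic HMG-CoA synthase that commits acetyl units to mevalonate, had log2 signals of 9.69 and 9.77 in KO and of 9.78 and 9.70 in WT testes. One KO array was the lowest and one WT array the highest of the 4, and the groups overlapped. The log2 difference, KO minus WT, was -0.02 (standard error 0.06, unadjusted p = 0.773 from limma), which leaves KO at 98.8% of the WT signal with a 95% confidence interval from 88.9% to 109.7%. Fdft1, the gene of squalene synthase, which joins 2 farnesyl units into the first molecule reserved for sterols, was at 11.77 in both KO arrays and at 11.76 and 11.81 in the WT arrays. Its difference was -0.01 (standard error 0.05), and its interval, from 90.8% to 108.3% of WT, was the narrowest of the 7. A pair of further probe sets is annotated to Fdft1 together with the cathepsin gene Ctsb and gives neither gene a value. The first read 9.32 and 9.48 in KO and 9.56 and 9.52 in WT testes (log2 difference -0.14, unadjusted p = 0.110 from limma), and the second read 11.73 and 11.69 in KO and 11.66 and 11.72 in WT testes (log2 difference 0.02). In the first of these the genotypes did not overlap and in the second they did, and the difference between the probe sets was not tested.

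Sqle encodes squalene epoxidase, which adds the oxygen needed for ring closure and is a rate-limiting enzyme of the route. It was the only one of the 7 whose KO and WT arrays did not overlap, at 10.22 and 10.18 in KO and at 10.05 and 10.15 in WT testes. The KO arrays were higher, by a log2 difference of 0.10 with a standard error of 0.06 (limma, unadjusted p = 0.148, adjusted p = 0.9995), or 107.1% of WT with an interval from 96.6% to 118.7%. The gap between the nearest KO and WT arrays was smaller than that between the WT arrays. Among all named probe sets, 20.1% had both KO arrays above both WT arrays, so that 1 of 7 is near that background.

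The next enzymes, LSS, CYP51 and DHCR7, had lower means in KO than in WT testes, and for all 3 genes the genotypes overlapped. Lss, the gene of the synthase that folds the epoxide into lanosterol, was at 8.51 and 8.31 in KO and at 8.75 and 8.33 in WT testes. Here WT replicate 1 stood alone on the high side, and KO replicate 2 and WT replicate 2 were almost equal. The log2 difference was -0.13 (standard error 0.16, unadjusted p = 0.445 from limma), and the interval, from 69.2% to 120.8% of WT, was the widest of the 7. Cyp51, which encodes the demethylase acting on lanosterol, read 9.46 and 9.51 in KO and 9.76 and 9.48 in WT testes. WT replicate 1 was again the highest of the 4 arrays, and the other 3 lay within a narrow range. With a log2 difference of -0.14 (standard error 0.10, unadjusted p = 0.235 from limma), Cyp51 had the largest mean difference of the 7, at 90.8% of WT and with an interval from 75.6% to 109.1%.

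Dhcr7 encodes the reductase of the last step to cholesterol, which takes its substrate away from vitamin D synthesis. Its signals were 8.17 and 8.33 in KO, and 8.52 and 8.17 in WT testes. The lowest KO and the lowest WT array were alike, and WT replicate 1 was the highest. The log2 difference was -0.09 (standard error 0.13, unadjusted p = 0.508 from limma), with an interval from 74.3% to 118.3% of WT. For the regulator Srebf2, the KO arrays were at 8.34 and 8.45 and the WT arrays at 8.43 and 8.22, with WT replicate 2 the lowest. Its log2 difference was 0.08 (standard error 0.09, unadjusted p = 0.432 from limma), with an interval from 90.0% to 123.5% of WT. The mRNA of Srebf2 does not show how much SREBP2 is cleaved, which was not measured here.

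**Figure D1:**
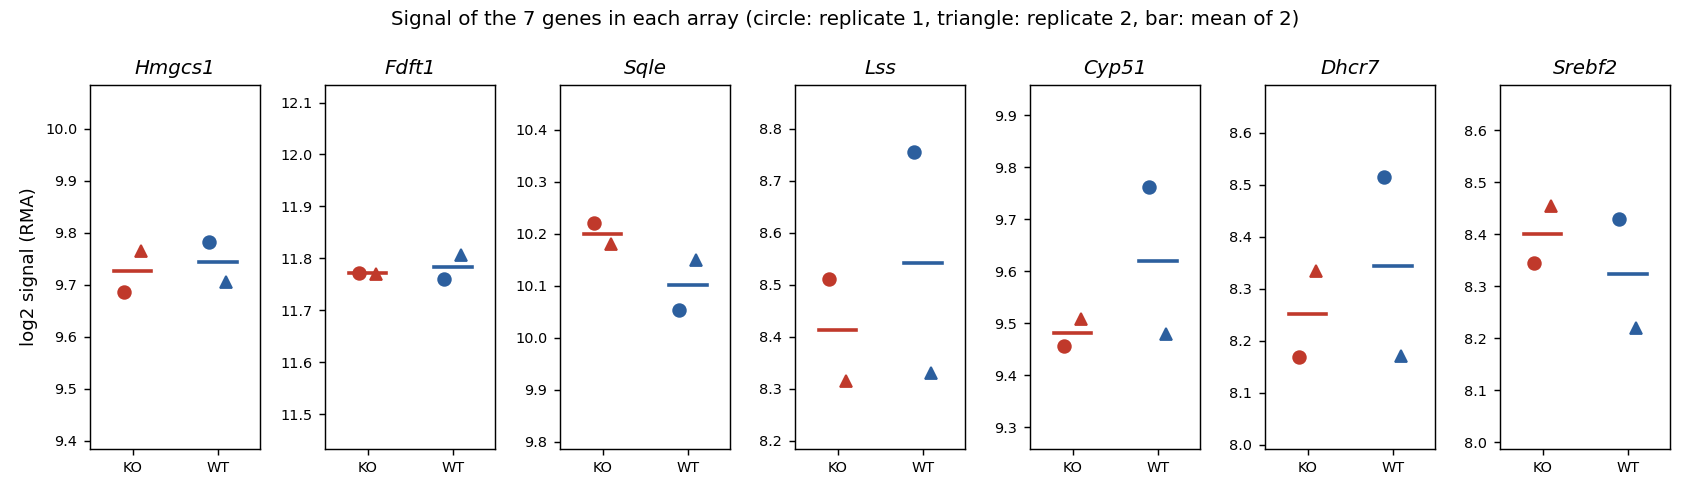
Log2 signal (vertical axis, one panel per gene, all spanning the same width) of the 7 genes in KO (red) and WT (blue) testes. Circles are replicate 1, triangles replicate 2 and bars the mean of the 2 arrays. For Lss, Cyp51 and Dhcr7 the WT replicate 1 array, at 8.75, 9.76 and 8.52, lies above the other 3, and for Sqle alone the genotypes do not overlap.

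None of the 7 genes passed an adjusted p of 0.05 from limma (0 of 7, where 0.00433% of the 23099 named probe sets passed), none reached both a fold of 1.5 and an unadjusted p below 0.05 (0 of 7, where 0.0823% did), and none had an unadjusted p under 0.05, by limma or by the ordinary equal-variance test (0 of 7, where 4.1% of the probe sets did by limma). As the first 2 backgrounds are so low, a count of 0 among 7 is no particular result. In 5 of the 7 genes KO was lower and in 2, Sqle and Srebf2, it was higher, and none had both KO arrays below both WT arrays, which 12.3% of the named probe sets had. Over all 18820 genes, KO was lower in 8166 and higher in 10654. The median log2 difference of the 7 was -0.02, against 0.01 over all genes, and the median size of the difference without its sign was 0.09, against 0.05. All 7 confidence intervals, each taken for its gene alone, lay within a fold of 1.5 in either direction. This held for 4 of the 7 by the ordinary equal-variance test, and for 6 of the 7 without KO replicate 1, without KO replicate 2 or without WT replicate 2. These intervals measure only the spread between 2 pools a genotype.

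**Figure D2:**
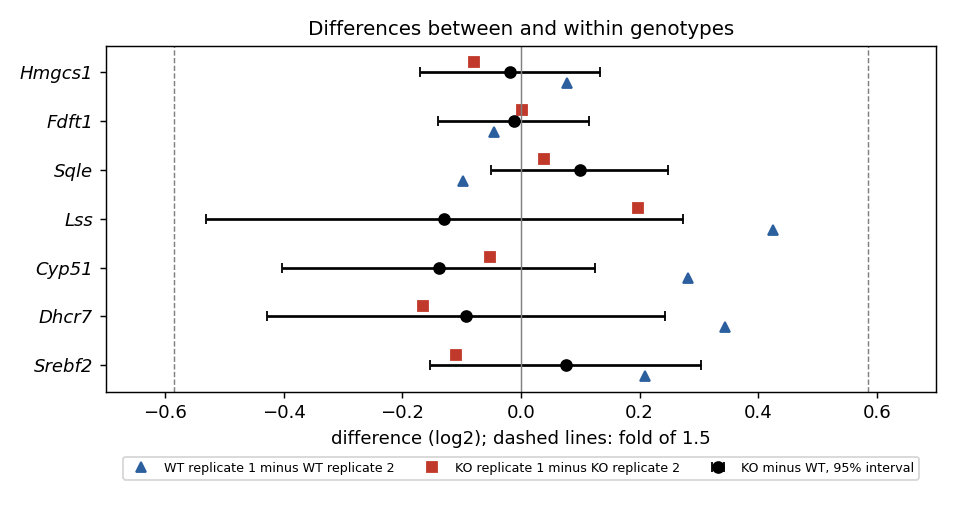
Log2 difference (horizontal axis) of each of the 7 genes between KO and WT testes (black, with 95% confidence interval from limma), between the WT arrays (blue triangles) and between the KO arrays (red squares). Dashed lines mark a fold of 1.5. All intervals contain 0, and for Lss, Cyp51, Dhcr7 and Srebf2 the WT arrays differed by 0.21 to 0.42.

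In 6 of the 7 genes, all but Sqle, the larger of the differences between arrays of one genotype exceeded the difference between genotypes, and so it did in 79.0% of all genes. WT replicate 1 exceeded WT replicate 2 by a log2 difference of 0.42 for Lss (1.34-fold), 0.34 for Dhcr7 (1.27-fold), 0.28 for Cyp51 (1.22-fold) and 0.21 for Srebf2 (1.16-fold). Hmgcs1, at 0.08, Fdft1, at -0.05, and Sqle, at -0.10, differed less, and the last of these in the opposite direction. By the size of the difference between the WT arrays, Lss ranked at the 99.0th percentile of all genes, Dhcr7 at the 98.1st, Cyp51 at the 96.4th and Srebf2 at the 91.4th, and Fdft1 at the 35.2nd. A fold of 1.2, a limit chosen after the values were seen, was passed by 3 of the 7 with WT replicate 1 above WT replicate 2, and by 2.75% of the named probe sets. With 1 pool on each side this has no replicate check and no test.

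Between the KO arrays, none of the 7 passed that fold, whether with KO replicate 1 above (2.61% of the named probe sets) or below KO replicate 2 (2.73%). The KO differences ranged from -0.17 for Dhcr7 to 0.20 for Lss, and these have opposite signs although both genes were higher in WT replicate 1.

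Without WT replicate 1 the log2 differences between genotypes became 0.08 for Lss, 0.08 for Dhcr7, 0.0023 for Cyp51 and 0.02 for Hmgcs1, all of the opposite sign to those with 4 arrays, and without WT replicate 2 they were -0.34 for Lss, -0.27 for Dhcr7 and -0.28 for Cyp51, with unadjusted p-values of 0.0310, 0.0494 and 0.0152 and an adjusted p of 0.9995 each from limma. The sign of Srebf2 also depended on one array, with a difference of 0.18 without WT replicate 1 and of -0.03 without WT replicate 2. Hmgcs1 was also at 0.02 without KO replicate 1, and Fdft1 at 0.01 without WT replicate 2. Sqle stayed above 0 whichever array was left out, from 0.05 to 0.15.

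The other genes of the route were read from lists of 62 genes in all, 7 of them the genes above. Of the other 55, 42 had a value of their own. The other 13 were not analysed here. None of the 42 passed an adjusted p of 0.05 from limma, and 2 had an unadjusted p under 0.05, 1 lower and 1 higher in KO. Among all named probe sets 4.1% had such a p by limma, so that 2 of 42 is near that background. The lower was Sc5d, a desaturase before DHCR7, at 8.67 and 8.78 in KO and 9.004 and 8.91 in WT testes (log2 difference -0.23, unadjusted p = 0.0165 and adjusted p = 0.9995 from limma). The higher was Mbtps1, the gene of the site-1 protease that makes the first cut in SREBP2, at 9.20 and 9.14 in KO and 9.01 and 9.03 in WT testes (log2 difference 0.15, unadjusted p = 0.0305 and adjusted p = 0.9995 from limma). In both genes the genotypes did not overlap. Among all 42, both KO arrays lay below both WT arrays in 8 genes and above them in 3, where the shares over all named probe sets were 12.3% and 20.1%. The unadjusted p of Sc5d was 0.0817 by the ordinary equal-variance test, 0.0779 without KO replicate 1 and 0.0806 without WT replicate 1. That of Mbtps1 was 0.0671 with a replicate block and between 0.0550 and 0.139 with any one array left out.

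In the mevalonate arm, the 6 measured genes beside Hmgcs1 and Fdft1 had a median log2 difference between genotypes of -0.01. With both included the median was -0.02, and it was -0.03 without either KO array, 0.0077 without WT replicate 1 and -0.07 without WT replicate 2. The farnesyl diphosphate synthase gene Fdps was lowest, at -0.13, with KO arrays at 9.52 and 9.59 and WT arrays at 9.75 and 9.60, followed by the phosphomevalonate kinase gene Pmvk at -0.07. The mevalonate kinase gene Mvk and the isomerase gene Idi2, each at 0.01, were the highest. From squalene to cholesterol, the 8 measured genes beside the 4 above had a median of -0.11, and none but Sc5d had an unadjusted p under 0.05. Nsdhl, a decarboxylating dehydrogenase of sterols, had the lowest value at -0.30 (unadjusted p = 0.136 from limma), with its KO arrays at 9.08 and 9.59 and its WT arrays at 9.60 and 9.67. Here KO replicate 1 stood apart from the other 3 arrays. Erg28, a scaffold of the demethylation complex, had the highest value at 0.10.

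The same arm carried the largest contrast between the WT arrays. Of its 8 other measured genes, 5 were higher in WT replicate 1 by a fold of 1.2 or more, and none was lower by that fold. The sterol reductase gene Tm7sf2 was at 7.995 in WT replicate 1 and 7.08 in WT replicate 2, with its KO arrays at 7.498 and 7.31. Msmo1, a sterol methyl oxidase gene, was at 9.45 and 9.06 in the WT arrays, with KO at 9.18 and 9.09. Hsd17b7, a sterol ketoreductase gene, was at 8.42 and 8.03 in the WT arrays, Erg28 at 9.92 and 9.50, and the isomerase gene Ebp at 8.28 and 7.88. The median of WT replicate 1 minus WT replicate 2 was 0.39 over these 8 genes, 0.21 over the 7 genes first described and -0.00056 over all genes. After quantile normalization the medians were 0.38 and 0.19, and with each array centred on its median they were 0.41 and 0.23, with 5 of 8 and 3 of 7 past a fold of 1.2 under both. In the mevalonate arm, 1 of the 6 other genes passed that fold, Mvd, at 6.78 and 6.36 in the WT arrays. These genes were named after their values were seen. Over the 12 measured genes from squalene to cholesterol, Sqle, Lss, Cyp51 and Dhcr7 included, the median difference between genotypes was -0.11 with 4 arrays and -0.04 when KO replicate 2 was left out, and 0.08 or -0.27 when WT replicate 1 or 2 was.

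**Figure D3:**
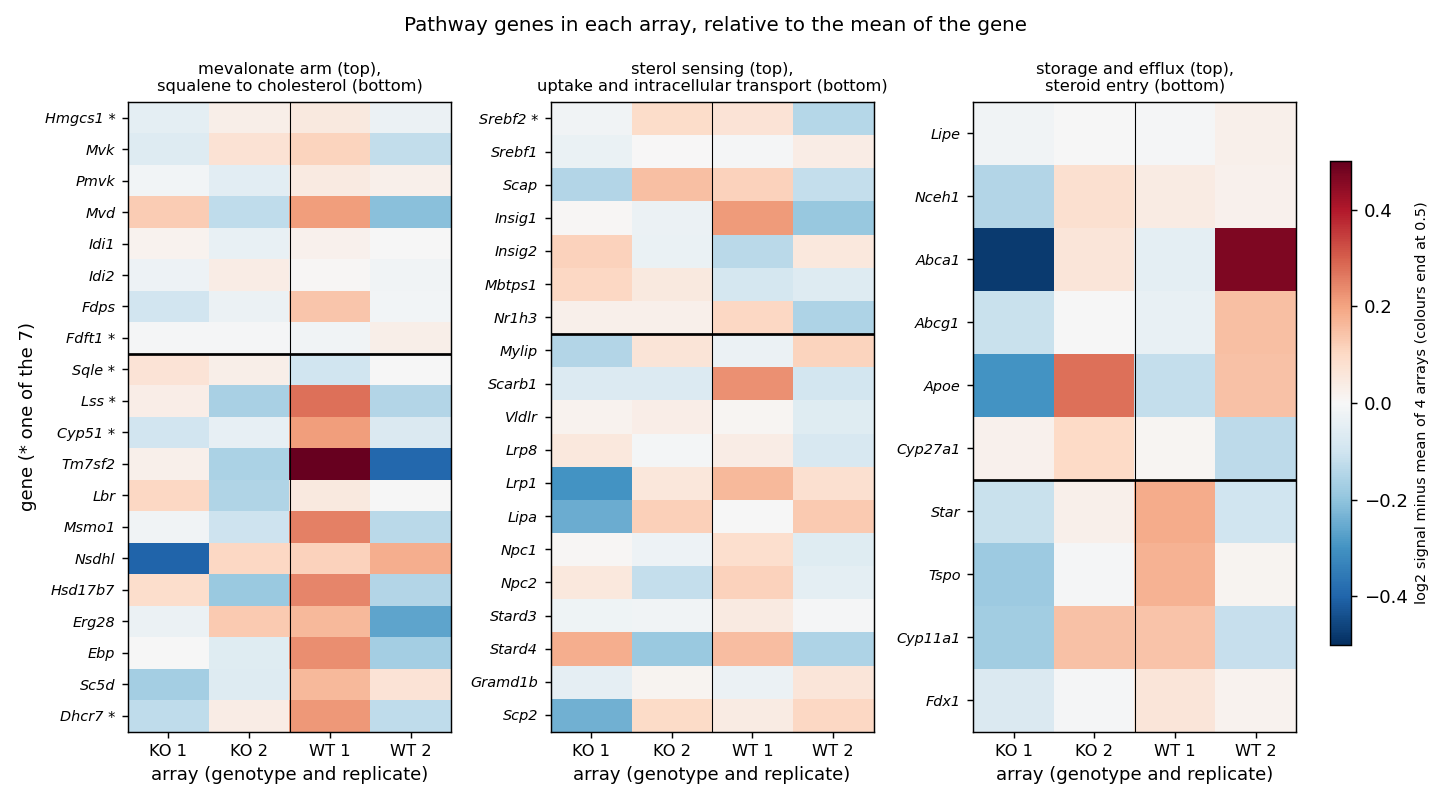
Log2 signal of each measured pathway gene in each array, minus the mean of the gene over the 4 arrays (colour scale, red above and blue below the mean, ending at 0.5). Columns are arrays, rows are genes, and stars mark the 7 genes. From squalene to cholesterol the WT 1 column is red for most genes, such as Tm7sf2, Msmo1 and Lss, and the WT 2 column is mostly blue.

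Among the genes that sense sterols, 6 beside Srebf2 were measured, with a median log2 difference of 0.03. With Srebf2 included the median was 0.05, and it became 0.02 when KO replicate 2 was left out, and 0.14 or -0.03 when WT replicate 1 or 2 was. Mbtps1, at 0.15, and Insig2, at 0.08, which holds SCAP in the endoplasmic reticulum, had the highest values. Srebf1, the gene of the related factor that acts mainly on fatty acid synthesis, was at -0.03 and Insig1 at -0.02. Insig1, itself a target of SREBP2, was at 9.50 in WT replicate 1 and 9.09 in WT replicate 2, with KO at 9.29 and 9.25, and was the only one of the 6 past a fold of 1.2 between the WT arrays.

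For uptake and transport within the cell, 12 of 15 listed genes were measured. Of these, 10 were lower and 2 higher in KO, where 8166 and 10654 of all 18820 genes were. Their median log2 difference was -0.05, and no gene passed an unadjusted p of 0.05 from limma. This median became -0.02 when KO replicate 1 was left out, and 0.0025 or -0.08 when WT replicate 1 or 2 was. The lowest was Lrp1, a large endocytic receptor of lipoproteins, at -0.24 (unadjusted p = 0.111 from limma), with KO at 8.44 and 8.79 and WT at 8.90 and 8.82, followed by the sterol carrier gene Scp2 at -0.15. The receptor genes Vldlr, at 0.05, and Lrp8, at 0.04, were the highest. Scarb1, the receptor through which steroidogenic cells take up cholesterol esters from HDL, had KO arrays at 10.35 and 10.35 and WT arrays at 10.65 and 10.33, so that WT replicate 1 alone was high (log2 difference -0.14, unadjusted p = 0.276 from limma). It was named after its values were seen.

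Storage and efflux genes showed another distribution over the arrays. Abca1, which exports cholesterol to apolipoproteins, had the largest difference of all 42 genes at -0.42 (standard error 0.24, unadjusted p = 0.144 from limma), but its arrays, at 8.51 and 9.05 in KO and 8.94 and 9.46 in WT, overlapped. Macrophage markers had the same order over the arrays, with a mean, after centring of each gene, of -0.23 and 0.07 in KO and of -0.06 and 0.23 in WT, and their part in the value of Abca1 was not tested. Abcg1, a second exporter, was at -0.11, and Cyp27a1, a mitochondrial sterol hydroxylase gene, was the highest at 0.12. The list had a median log2 difference of -0.05 over 6 measured genes. Leaving out KO replicate 1 gave a median of 0.02 and leaving out KO replicate 2 one of -0.17, while it was -0.11 and -0.01 when WT replicate 1 or 2 was left out. In these genes WT replicate 1 was the highest array for 0 of 6, whereas it was for 9 of 12 from squalene to cholesterol, for 4 of the 7 genes first described and for 20.4% of all genes.

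The 4 measured genes listed under steroid entry were all lower in KO, as were 8166 of all 18820 genes. Their median log2 difference was -0.08, and none had an unadjusted p under 0.05 from limma. Tspo, an outer mitochondrial membrane protein, was at 6.84 and 7.02 in KO and 7.20 and 7.03 in WT testes (log2 difference -0.19, unadjusted p = 0.0891 from limma). When KO replicate 1 or 2 was left out, the median of the list was -0.03 or -0.17, and for WT replicate 1 or 2 it was 0.000439 or -0.19. Star, which delivers cholesterol to the inner membrane, was at 10.58 and 10.72 in KO and 10.88 and 10.60 in WT testes (log2 difference -0.08), and WT replicate 1 was the highest array for Star as well.

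Markers of several cell types moved between the same WT arrays. WT replicate 1 was above WT replicate 2 in 3 of 4 Leydig cell markers, 7 of 7 Sertoli cell markers, 6 of 6 spermatogonia markers, 5 of 6 spermatocyte markers, 2 of 6 spermatid markers and 4 of 5 adipocyte markers, and in 0 of 6 macrophage markers. Over all genes it was above in 49.7%. The median difference was 0.17 for Leydig, 0.15 for Sertoli and 0.15 for spermatogonia markers, and -0.26 for macrophage markers, against 0.39 for the 8 genes from squalene to cholesterol. It was close to 0 for spermatocyte markers, at 0.01, adipocyte markers, at 0.04, and spermatid markers, at -0.01, so their counts by sign rest on small differences. Star and Cyp11a1, 2 of the 4 Leydig cell markers, also stand in the list of steroid entry. Between genotypes, all 6 macrophage markers had lower means in KO, with a median log2 difference of -0.19, and all 7 Sertoli cell and all 6 spermatocyte markers had higher means, with medians of 0.06 and 0.04. The genotypes overlapped in all 6 macrophage markers, and Cd163 among them lay below the median of all probe sets in every array. Both KO arrays lay above both WT arrays in 1 of 7 Sertoli cell and 3 of 6 spermatocyte markers, and in 20.1% of the named probe sets. All 4 Leydig cell markers had lower means in KO, with a median of -0.06. Lower and higher means numbered 2 and 4 for spermatogonia, 3 and 3 for spermatid and 4 and 1 for adipocyte markers. Of all 18820 genes, 8166 had lower and 10654 had higher means in KO. On the linear scale, the summed signal of the 4 Leydig cell markers ranged from 7697 to 8621 in KO and from 8031 to 8781 in WT arrays, and that of the 7 Sertoli cell markers from 3010 to 3210 and from 2834 to 3116. For the 6 macrophage markers the sums ran from 930.3 to 1113 in KO and from 1014 to 1254 in WT arrays. The adipocyte markers Plin1, Cidec and Lep lay below the median of all probe sets in every array. Adipoq lay above it in all 4 arrays and Fabp4 in 1. Fabp4 was lower in KO without overlap of the genotypes (log2 difference -0.31, unadjusted p = 0.0194 and adjusted p = 0.9995 from limma). The spermatocyte marker Tex101 was higher in KO without overlap (log2 difference 0.17, unadjusted p = 0.0326 and adjusted p = 0.9995 from limma). No other marker had an unadjusted p under 0.05 from limma, which 4.1% of all named probe sets had. The part of cell composition in the values of the 7 genes was not tested.

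**Figure D4:**
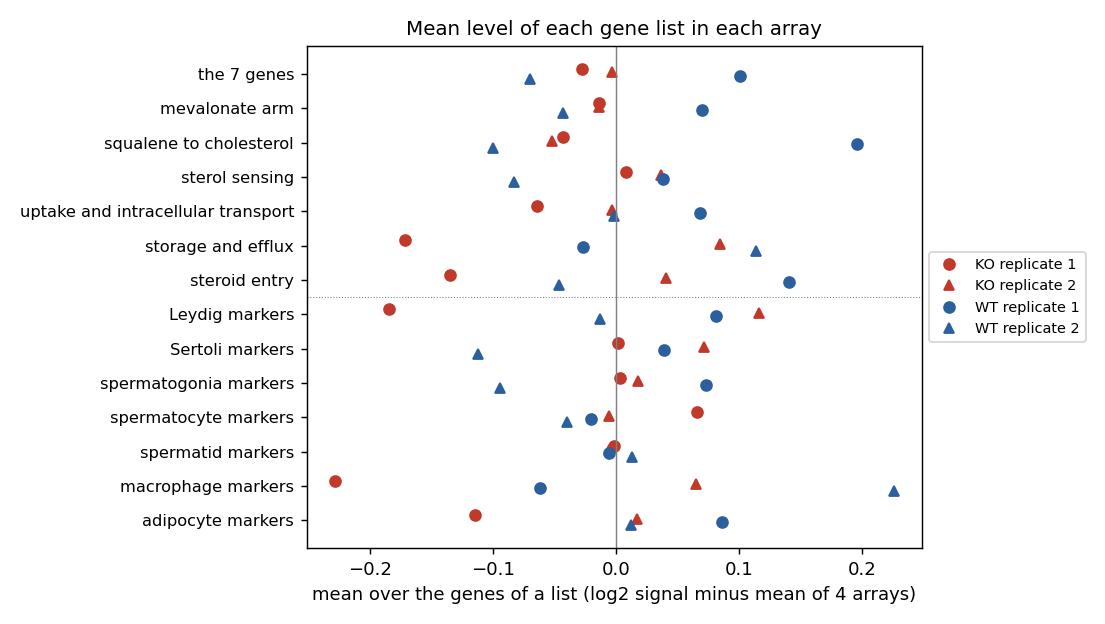
Mean over the genes of each list (horizontal axis, log2 signal minus the mean of each gene over the 4 arrays), with 1 point per array. Red is KO, blue WT, circles replicate 1 and triangles replicate 2. For the 7 genes WT replicate 1 lies at 0.10 and WT replicate 2 at -0.07 with both KO arrays between them, and the squalene to cholesterol list spans 0.20 to -0.10 in the same order of the WT arrays.

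The mean profile of the 7 genes over the arrays, each gene centred on its own mean, stood at -0.03 and -0.0033 in KO and at 0.10 and -0.07 in WT testes. Of the 42 other pathway genes, Npc1, which releases cholesterol from lysosomes, was nearest to this profile, with a root mean square difference of 0.02 over the 4 arrays, followed by Stard3, a sterol transfer gene of late endosomes, at 0.04 and Mvk at 0.05. With 4 arrays and so flat a profile, this is a description only.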

How the data were processed

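For each probe set the authors deposited a log2 signal made with RMA, and Partek 6.13.1224 is named in the submitters' processing notes. The genome build and the level of summarization are not given in the sources used here. The labels name a 3' labelling kit, which was not examined further. Of 35556 probe sets, 23099 are paired with a gene, 1881 of these with several, and symbols were updated through gene identifiers. KO was compared with WT on all 4 arrays by limma 3.58.1 in R 4.3.3 (lmFit and eBayes, 4.96 total degrees of freedom, Benjamini-Hochberg over 23099 probe sets, no filter), and the fit was tested on simulated data. Intervals are at 95%. The number of arrays limits the precision. Each pool is 1 replicate, and p-values measure only the spread between pools. The alternatives were a trend, robust moderation, the ordinary equal-variance test, other scalings, a filter on dim probe sets, every row, probe set means, a replicate block and each array left out. Genes named beside the 7 were the 2 largest differences in each direction of each list, the 3 nearest profiles and those stated as chosen later. The genes, lists and motifs were chosen with earlier results of these data known. Python 3.11.15 and matplotlib 3.10.9 were used for the figures.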

Additional observations from a re-analysis of the deposited data

How the results depend on the processing

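The 7 genes kept the sign of their log2 difference under every setting that used all 4 arrays, and none passed an adjusted p of 0.05 under any setting. Probe sets past an adjusted p of 0.05 numbered 1, and those past a fold of 1.5 with an unadjusted p below 0.05 numbered 19. These counts were 0 and 6 with the ordinary equal-variance test, and 0 and 127 over every row of the table, where more rows were tested. With one array left out, where the lone array of a genotype was assumed to vary like the other genotype, the first count ranged from 0 to 2 and the second from 29 to 69. The genes among the 7 past an unadjusted p of 0.05 then ranged from 0 to 3, those whose arrays did not overlap from 3 to 6, since 3 arrays overlap less easily, and their median log2 difference from -0.06 to 0.05. The matching shares of all named probe sets were not taken with one array left out, and those given earlier rest on 4 arrays. Whether these counts of genes exceed their background is therefore not known. With one array left out, the log2 differences ranged from -0.0574 to 0.0215 for Hmgcs1, -0.0349 to 0.0103 for Fdft1, 0.05 to 0.15 for Sqle, -0.34 to 0.0833 for Lss, -0.28 to 0.0023 for Cyp51, -0.27 to 0.0796 for Dhcr7 and -0.0287 to 0.18 for Srebf2. The cause was not tested. The replicate numbers share nothing in the labels but the number, and the differences between replicates 1 and 2 correlated at -0.08 between genotypes over the named probe sets. With a replicate block, 24 probe sets passed the fold of 1.5, against 19, and no call among the 7 changed. Averaging the probe sets of a gene changed none of the 7, which have 1 probe set each of their own.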
